A study of Mus musculus with 19 samples.

Results

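The ER lumen chaperones described here are 10 genes picked by name out of 55401 genes in the count files. No rule on measured values picked these genes, but they were chosen with earlier results of these data known. Their counts beside the shares of all genes are therefore descriptions of a chosen set. They are Hspa5 (which encodes BiP), Hsp90b1, Calr, Canx, Dnajc3, Dnajb11, Sdf2l1, Hyou1, Creld2 and Manf. All 10 were found in the files and all 10 were among the 18039 genes with enough reads to test. The study sequenced polyadenylated RNA in 19 libraries from wild-type C2C12 cells, an immortalised line of mouse myoblasts, in 7 groups. Cells received DMSO for 2, 6 or 12 h, or 100 nM thapsigargin for 2, 6 or 12 h. The seventh group, called recovery, received 100 nM thapsigargin for 6 h and was then kept for 48 h in medium without the drug. Each group held 3 libraries except the DMSO and thapsigargin groups at 12 h, which held 2 each. The labels give DMSO at 100 nM as well. No DMSO group matched the full time that the recovery cells spent in culture, so the effects of drug withdrawal and of the longer culture cannot be told apart. C2C12 is an established line and not muscle tissue.

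The endoplasmic reticulum (ER) is where secreted and membrane proteins fold, and its lumen holds a high concentration of calcium. Thapsigargin blocks SERCA, the pump that fills the ER with calcium, and so empties that store. Many ER chaperones bind calcium or need it to work. Unfolded protein in the ER activates the sensors Ire1, Perk and Atf6, and the transcription factors downstream of them are known to switch on genes for chaperones, which is called the unfolded protein response. BiP is the Hsp70 of the ER: it binds unfolded chains and releases them in a cycle driven by ATP. Dnajb11 and Dnajc3 carry J domains that bring substrates to BiP and speed its ATP hydrolysis, Hyou1 exchanges its nucleotide, and Sdf2l1 works together with Dnajb11. Hsp90b1 is the Hsp90 of the ER. Calr (calreticulin) and Canx (calnexin) are lectin chaperones that hold newly glycosylated proteins, the first soluble and the second anchored in the membrane. Creld2 and Manf are small secretory-pathway proteins known as markers of ER stress.

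Libraries held 17305962 to 40964140 reads assigned to genes, with the 12 h libraries at the low end. All 8 myoblast markers averaged over 1 CPM (counts-per-million after TMM scaling) in both 2 h groups and in recovery, and 6 of 8 did so at 12 h of thapsigargin. Their summed level was 2251 to 2480 CPM at 12 h of thapsigargin and 5454 to 5497 CPM at 12 h of DMSO, while over the other groups it ran from 6547 to 21636 CPM. Vim made up most of the 12 h sums, at a mean of 4410 CPM with DMSO and 1369 CPM with thapsigargin. Myf5 went the other way at 12 h, from 28.3 CPM with DMSO to 218 CPM with thapsigargin, and Des was at 389 and 369 CPM. Myod1 was at 14.4 and 5.03 CPM in these groups, against 212 CPM at 2 h of DMSO. Summed macrophage markers reached at most 11.2 CPM and endothelial markers at most 4.92 CPM, and the defining genes Adgre1 and Epcam were at 0 in every group. Epithelial markers summed to 15.96 to 28.8 CPM at 6 h of thapsigargin and 1.12 to 3.36 CPM at 6 h of DMSO. Endothelial markers summed to 2.64 to 4.92 CPM at 6 h of thapsigargin and 0.514 to 0.610 CPM at 6 h of DMSO. Adipocyte markers summed to 127 to 136 CPM at 12 h of thapsigargin and 46.9 to 52.2 CPM at 12 h of DMSO. That rise was in Lpl, at a mean of 36.6 CPM with DMSO and 117 CPM with thapsigargin. In the same order Pparg was at 11.4 and 13.3 CPM and Fabp4 at 1.496 and 0.970 CPM. Adipoq and Plin1 were at 0 in both of these groups. The part of these shifts in the chaperone results was not tested. Mitochondrial transcripts took 15.8% of gene reads in the third DMSO 2 h library and 14.9% in the first recovery library, against 1.41 to 3.07% in the other 17. Member results that changed without these 2 libraries are given below, for most comparisons only as counts of members called. In bulk RNA, fewer cells of a type and less RNA per cell cannot be told apart. Nothing in the labels says that replicates were separate cultures, so the p-values rest on a spread between libraries that may be only technical.

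The promoters are shown first because most of the 10 genes carry the same control element. The ER stress response element, ERSE, is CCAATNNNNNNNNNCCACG: a CCAAT block, which the factor NF-Y binds, and a CCACG block, which Atf6 is known to bind, at a fixed distance of 9 bases. RefSeq windows from 250 bases before to 50 bases after the gene start (GRCm38.p6) were available for 8 members; Hyou1 and Manf had none. Positions are counted from the start, with -1 the base before it. In the lines that follow, capitals mark the CCAAT and CCACG blocks of an element, read on either strand (ATTGG and CGTGG are the same blocks on the other strand). In Sdf2l1, where no element was found, they mark some of the separate blocks nearest the start, and in Hsp90b1 they also mark the blocks of an element with 1 mismatch.
Hspa5: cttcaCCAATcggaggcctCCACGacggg
Hsp90b1: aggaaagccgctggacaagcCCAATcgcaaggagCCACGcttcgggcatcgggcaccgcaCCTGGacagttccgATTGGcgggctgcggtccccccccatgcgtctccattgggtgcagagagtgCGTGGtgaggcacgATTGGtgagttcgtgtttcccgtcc
Calr: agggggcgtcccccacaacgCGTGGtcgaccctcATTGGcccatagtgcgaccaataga
Canx: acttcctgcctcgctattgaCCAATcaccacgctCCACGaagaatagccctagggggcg
Dnajc3: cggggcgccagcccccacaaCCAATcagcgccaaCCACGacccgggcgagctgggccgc
Creld2: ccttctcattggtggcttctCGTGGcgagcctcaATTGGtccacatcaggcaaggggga
Dnajb11: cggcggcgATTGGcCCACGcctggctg
Sdf2l1: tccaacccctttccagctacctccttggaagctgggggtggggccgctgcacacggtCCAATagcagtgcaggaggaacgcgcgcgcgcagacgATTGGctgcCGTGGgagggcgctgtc
All are written 5′ to 3′ on the strand of the gene. The Hspa5 line is chr2:34772020-34772048 (plus strand) and holds its ERSE at -65 to -47. Hsp90b1 (chr10:86705513-86705676, minus strand) has a pair of them, in opposite directions, at -212 to -194 and at -107 to -89. Between them, at -172 to -154, lies a copy with 4 of 5 letters of its CCACG block, CCAGG on its own strand. Calr (chr8:84847055-84847113, minus strand) has an ERSE at -162 to -144, and Canx (chr11:50325780-50325838, minus strand) at -145 to -127. In Dnajc3 (chr14:118937807-118937865, plus strand) it lies at -105 to -87. In Creld2 (chr15:88819500-88819558, plus strand) it lies at -126 to -108. Dnajb11 (chr16:22857844-22857870, plus strand) has no ERSE but has the related ERSE-II, ATTGGNCCACG, at 8 to 18 after the start. In the window of Sdf2l1, whose printed stretch is chr16:17132384-17132503 on the minus strand, neither spacing occurred.

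The stretch of Hspa5 further upstream is shown because it carries more CCAAT boxes with no CCACG block at the ERSE distance.
Hspa5 upstream: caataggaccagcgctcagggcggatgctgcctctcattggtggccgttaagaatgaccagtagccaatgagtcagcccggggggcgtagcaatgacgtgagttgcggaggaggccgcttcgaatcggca
It covers chr2:34771840-34771969, bases -250 to -121. CCAAT boxes lie in it at -214 to -210 and at -186 to -182. A further box at -98 to -94, between the 2 printed Hspa5 stretches, has CCAAC and not CCACG at the ERSE distance. GENCODE M21 starts Hspa5 at base 34771970 of chromosome 2, upstream of the RefSeq start, so the ERSE printed above lies inside that gene model.

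The exact ERSE, searched on both strands, occurred in 6 of the 8 member windows and in 39 of all 32851 RefSeq windows of the same length (0.119%), which belong to 37 of 27025 genes. ERSE-II occurred in 1 member and in 0.0365% of windows. The shorter words are far more common and overlap the element: CCAAT alone was in 8 of 8 members and 37.4% of windows, and CCACG alone in 8 of 8 and 32.8%. TGACGTGG, the core of the Xbp1 and Atf6 element, was in 0 of 8 members and 0.676% of windows. The shorter word TGACG, which opens that core, was in 3 of 8 members and 20.8% of windows. In Hspa5 it lies at -157 to -153. TGATGNAA, the composite element for C/EBP and Atf4, was in 0 of 8 and 3.97%. The ERSE of Creld2 is shared: the same 19 bases, chr15:88819520-88819538, lie in the window of Alg12, which starts 328 bases away on the opposite strand. That of Calr also lies in the window of the neighbour 1700122E12Rik. The counts over all windows include the members. The ERSE was searched as an element already known from ER stress genes, so its share among the members is a description and no test. A match here is a description of the letters and not evidence of binding.

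**Figure D1:**
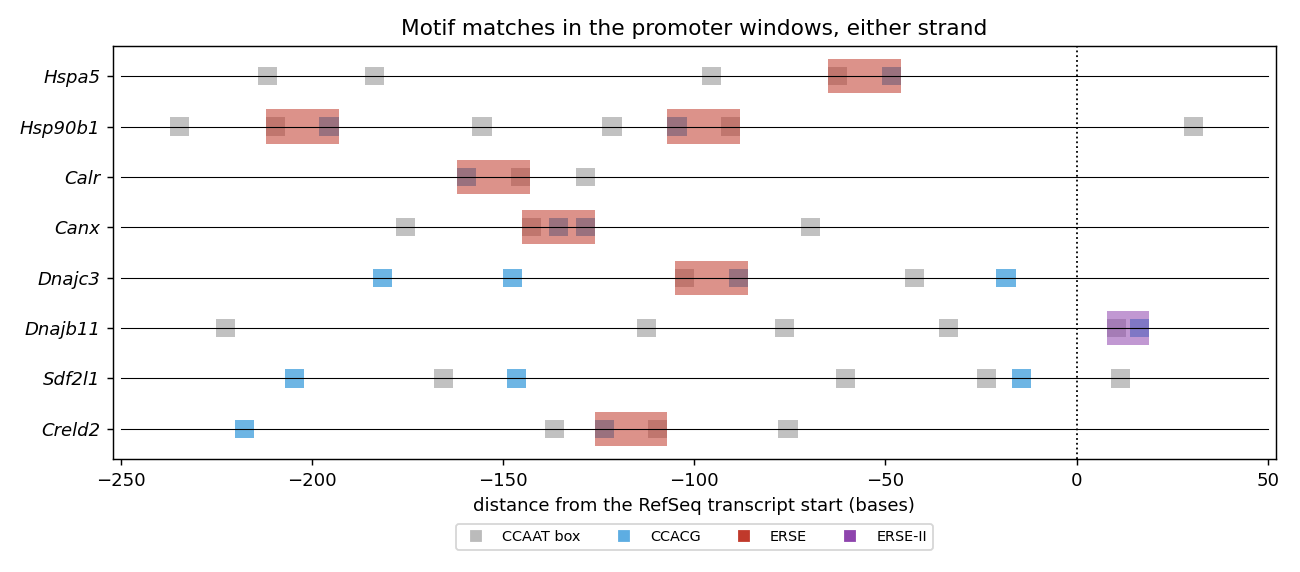
Positions of the ERSE, the ERSE-II, CCAAT boxes and CCACG blocks in the RefSeq promoter windows of 8 members; the horizontal axis is distance from the gene start in bases. ERSE matches lie between -212 and -47 in 6 genes, Dnajb11 has an ERSE-II after the start, and Sdf2l1 has only separate blocks.

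The 10 genes spanned a wide range of levels. Levels between genes are compared here as CPM per kilobase of transcript. At 2 h of DMSO Calr was the highest at 523 ± 37.2 CPM per kb (SD, n = 3), and its lowest library lay above every library of the next gene, Hsp90b1, at 272 ± 85.6. Hsp90b1, Hspa5 (212 ± 44.3) and Canx (165 ± 30.0) followed each other with overlapping libraries. A gap separated them from Hyou1 (36.5 ± 9.45), Creld2 (33.9 ± 8.98), Dnajb11 (30.9 ± 10.1) and Dnajc3 (24.5 ± 1.04), whose libraries again overlapped from each gene to the next. Manf was at 22.4 ± 0.649 CPM per kb, just below Dnajc3, and Sdf2l1 was the lowest at 10.6 ± 4.26. The order had changed at 12 h of thapsigargin, where Hspa5 led at 3839.6 ± 132 CPM per kb (SD, n = 2), ahead of Calr at 2210.4 ± 16.6 and Hsp90b1 at 1419 ± 122. Creld2 and Hyou1 came next at 492 ± 48.7 and 462 ± 17.6 with overlapping libraries, then Canx at 388 ± 27.6 and Sdf2l1 at 280.3 ± 40.8. The lowest were Manf at 181 ± 3.65, Dnajc3 at 125 ± 9.39 and Dnajb11 at 105 ± 2.59 CPM per kb. The 10 genes together took 0.380% of gene reads at 2 h of DMSO and 0.821% at 2 h of thapsigargin. At 6 h their share was 0.449% with DMSO and 2.42% with thapsigargin, and at 12 h it was 0.462% and 3.28%. After recovery it was 0.289%. Hspa5 alone made up 19.1 to 25.4% of the chaperone reads in the DMSO groups and in recovery, and 45.4%, 53.3% and 48.7% of them at 2, 6 and 12 h of thapsigargin.

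**Figure D2:**
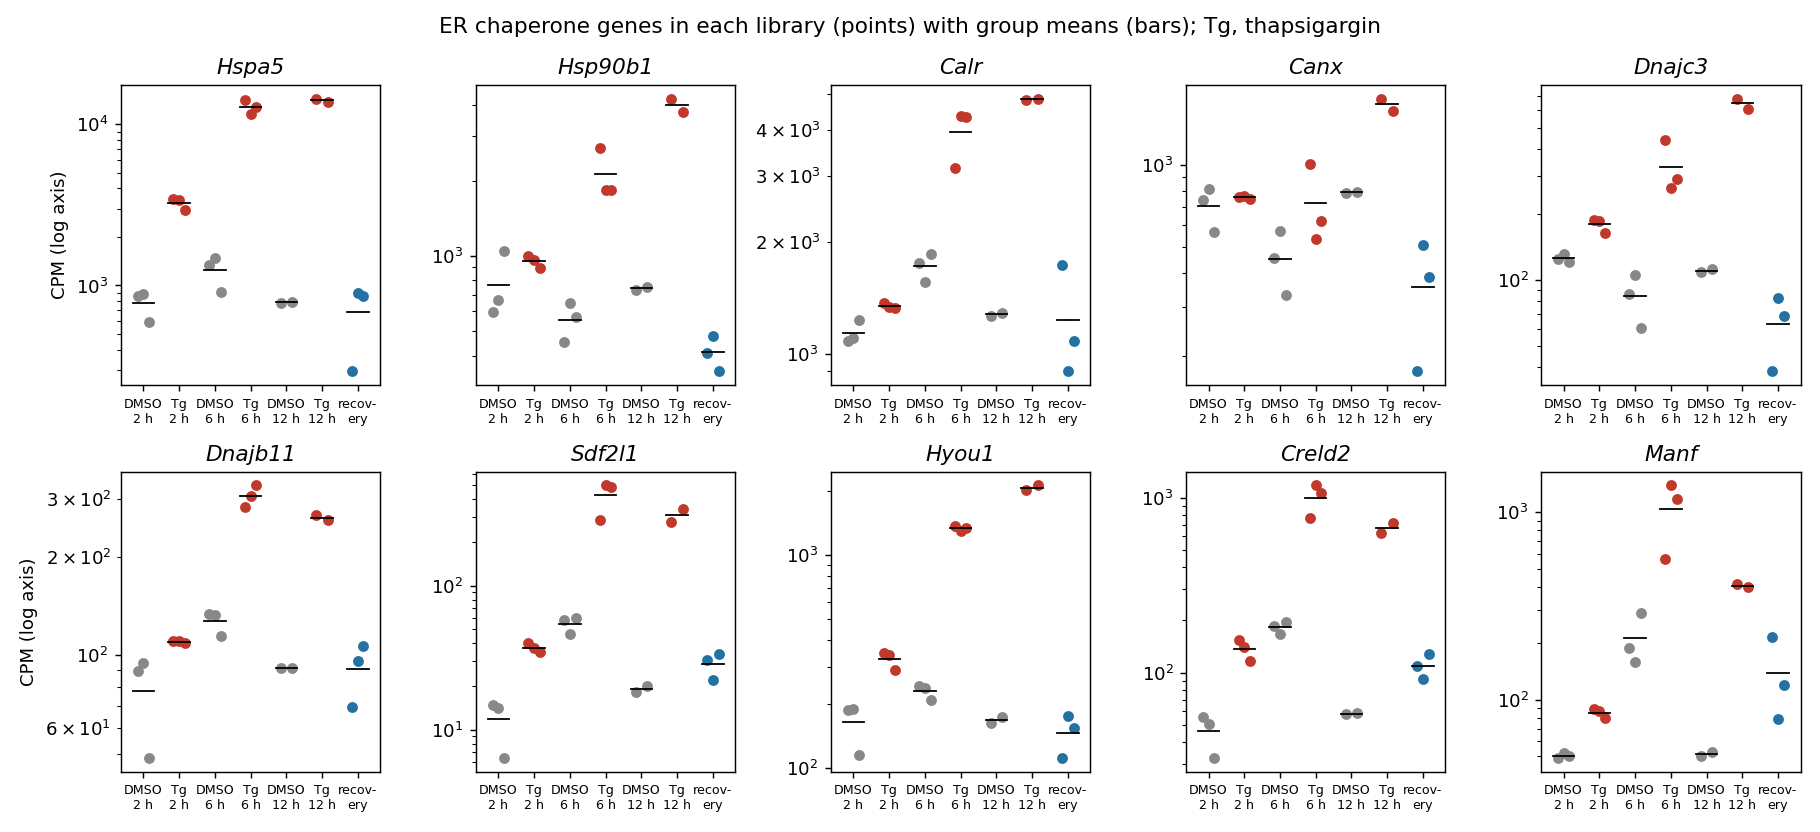
CPM of each of the 10 genes in each of the 19 libraries on a log axis, grouped by treatment and time; points are libraries and bars are group means. Thapsigargin libraries stand above the DMSO libraries of the same time in every panel at 12 h, and in every panel but that of Canx at 6 h.

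The first question was when thapsigargin raised these genes over DMSO of the same time. At 2 h, 4 of 10 were higher by edgeR's quasi-likelihood test (Benjamini-Hochberg adjusted p under 0.05) and 0 were lower, where 3.01% of all tested genes were called higher. The 4 were Hspa5, Sdf2l1, Creld2 and Hyou1, and 8 of 10 had all thapsigargin libraries above all DMSO libraries, against 19.3% of all genes. At 6 h, 9 of 10 were higher, against 13% of all tested genes, and the ranges of 9 lay wholly above DMSO, against 21% of all genes. At 12 h, 9 of 10 were higher, against 6.29%, and all 10 lay wholly above DMSO, against 37.3%. The median log2 difference over the 10 genes was 0.64, 2.13 and 2.76 at 2, 6 and 12 h, beside medians of -0.04, 0.01 and 0.01 over all tested genes. Canx was the gene not called at 6 and 12 h. Without the libraries rich in mitochondrial transcripts the counts were 4, 10 and 10. The groups also differ in how levels depend on transcript length. The log2 level of long less short transcripts, set against the mean of all libraries, was 0.76 to 1.37 in the 2 h libraries, -1.63 to -0.75 with DMSO and -1.42 to -0.02 with thapsigargin at 6 h, and 0.49 to 0.70 at 12 h. In the recovery libraries it was -1.95 to -0.16. With offsets fitted for transcript length, 4, 9 and 10 members were called at 2, 6 and 12 h.

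Hspa5 (ENSMUSG00000026864.13, chr2:34771970-34777547, plus strand) had the largest log2 difference of the 10 genes at each of the 3 times. Its 3 DMSO libraries at 2 h were at 859, 884 and 590.0 CPM and its thapsigargin libraries at 3461, 3398 and 2954 CPM. At 6 h they were at 1346, 1489 and 906 CPM with DMSO and at 14122, 11662 and 12845 CPM with thapsigargin. The treated and untreated libraries did not overlap at either time, and the gap was wider at 6 h. At 12 h the DMSO libraries were at 776 and 793 CPM and the thapsigargin libraries at 14441 and 13757 CPM. The difference was 2.07 ± 0.33 on the log2 scale at 2 h (SE; 4.21-fold; edgeR adjusted p = 0.00212). It was 3.37 ± 0.33 at 6 h (10.3-fold; edgeR adjusted p = 7.64e-06) and 4.17 ± 0.40 at 12 h (17.97-fold; edgeR adjusted p = 1.51e-05). BiP mRNA was thus already raised at 2 h, and per kilobase it was the highest of the 10 at 2, 6 and 12 h of thapsigargin. At 2 h of thapsigargin Hspa5 was at 891 CPM per kb and Calr, the next, at 617.

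Of the co-chaperones and the exchange factor of BiP, Sdf2l1 and Hyou1 were called at 2 h, and all 4 at 6 and 12 h. The timing of different genes was not compared by a test. Sdf2l1 (ENSMUSG00000022769.9, chr16:17130138-17132383, minus strand) went from 14.9, 14.03 and 6.34 CPM in the DMSO libraries to 39.7, 36.7 and 34.5 CPM with thapsigargin at 2 h. At 12 h the same groups were at 18.2 and 20.02 and 279 and 343 CPM. Its log2 differences were 1.65 ± 0.28, 2.96 ± 0.28 and 4.02 ± 0.35 at 2, 6 and 12 h (edgeR adjusted p = 0.0036, 5e-06 and 4.51e-06). Sdf2l1 was thus called at all 3 times. Its own DMSO level also moved with time: the 6 h libraries were at 57.4, 46.1 and 59.5 CPM without thapsigargin, all above the 2 h thapsigargin libraries, and at 285, 497 and 486 CPM with it.

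Hyou1 (ENSMUSG00000032115.14, chr9:44379490-44392369, plus strand) was at 188, 189 and 115 CPM with DMSO and 348, 338 and 289.6 CPM with thapsigargin at 2 h. At 6 h the libraries were at 243, 237 and 209.9 CPM and 1373, 1299 and 1347 CPM, and at 12 h at 163 and 174 CPM and 2020.3 and 2132 CPM. The groups were apart at all 3 times, and the rise was 0.99 ± 0.21, 2.54 ± 0.21 and 3.62 ± 0.26 on the log2 scale (edgeR adjusted p = 0.0134, 1.05e-06 and 7.11e-07). The 2 h call was lost without the first or the second thapsigargin library of that time (edgeR adjusted p = 0.0674 and 0.0606), with scaling to total counts (0.0926) and with no filter on low counts (0.0540).

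Dnajb11 and Dnajc3, which carry the J domains, were not called at 2 h, although Dnajc3 was when only these 2 groups entered the fit (edgeR adjusted p = 0.0126). Dnajb11 (ENSMUSG00000004460.17, chr16:22857845-22879634, plus strand) was at 89.5, 94.7 and 48.5 CPM with DMSO and 111, 110.2 and 109 CPM with thapsigargin at 2 h, a log2 difference of 0.50 ± 0.22 (edgeR adjusted p = 0.247). At 6 h it went from 134, 133 and 114 CPM to 283, 306 and 330.0 CPM (1.27 ± 0.22; edgeR adjusted p = 0.000657). At 12 h the difference was 1.53 ± 0.27 (edgeR adjusted p = 0.00122). Dnajc3 (ENSMUSG00000022136.8, chr14:118937976-118981697, plus strand), which is also known to restrain kinases of the translation factor eIF2, was at 125, 132 and 122 CPM and 189, 187 and 164 CPM at 2 h (0.51 ± 0.27; edgeR adjusted p = 0.359). Its 6 h libraries were at 86.5, 106 and 60.5 CPM with DMSO and 439, 263 and 290.1 CPM with thapsigargin. Its rise was 1.97 ± 0.27 at 6 h and 2.54 ± 0.33 at 12 h (edgeR adjusted p = 9.4e-05 and 0.000106), so both J-domain genes were called from 6 h on.

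Hsp90b1 (ENSMUSG00000020048.13, chr10:86690209-86705509, minus strand), whose promoter holds the pair of ERSE copies as printed above, was called at 6 and 12 h and not at 2 h. Its libraries at 2 h were at 596, 666 and 1045 CPM with DMSO and 999, 963 and 893 CPM with thapsigargin, a log2 difference of 0.31 ± 0.24 (95% interval -0.20 to 0.82; the third DMSO library was the highest of the 6; edgeR adjusted p = 0.602). At 6 h they were at 451, 648 and 570.4 CPM and 2699.5, 1836 and 1832 CPM. At 12 h they were at 733 and 754 CPM and 4252 and 3766 CPM. The treated libraries stood wholly above DMSO at both later times, by 1.93 ± 0.24 and 2.43 ± 0.29 on the log2 scale (edgeR adjusted p = 4.48e-05 and 6.38e-05). Hsp90b1 overlaps the same-strand model Gm15344 and the opposite-strand gene 1810014B01Rik, and Dnajb11 overlaps the antisense gene Gm30505. Reads of such overlaps may be counted for either gene or dropped, since the strand setting of the counting is not given.

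Of the lectin chaperones Calr was called at 6 and 12 h and Canx at neither time. Calr (ENSMUSG00000003814.8, chr8:84841850-84846934, minus strand) was at 1083, 1109 and 1235 CPM with DMSO and 1368, 1339.8 and 1333 CPM with thapsigargin at 2 h, with a log2 difference of 0.24 ± 0.23 that was not called (edgeR adjusted p = 0.699). At 6 h it was at 1752, 1558 and 1857 CPM and 3169.9, 4345 and 4327 CPM. The difference was 1.20 ± 0.23 at 6 h and 1.91 ± 0.28 at 12 h (edgeR adjusted p = 0.00132 and 0.000262). Canx (ENSMUSG00000020368.15, chr11:50293961-50325673, minus strand) was at 455, 569.8 and 332 CPM with DMSO and 1009, 536 and 624 CPM with thapsigargin at 6 h, and these ranges overlapped. At 12 h it was at 789 and 793 CPM and 1743 and 1576 CPM. Its log2 differences were 0.10 ± 0.33, 0.68 ± 0.33 and 1.07 ± 0.40 at 2, 6 and 12 h (edgeR adjusted p = 0.941, 0.167 and 0.102). Its 95% intervals were -0.02 to 1.37 at 6 h and 0.22 to 1.92 at 12 h. Without the libraries rich in mitochondrial transcripts Canx was called at both 6 and 12 h (edgeR adjusted p = 0.0320 and 0.0107). At 12 h DESeq2 called it too (adjusted p = 0.0226), as did edgeR with length offsets (adjusted p = 0.00726) or with only these 2 groups in the fit (1.36e-21). That last fit held 2 against 2 libraries and called 8847 of 14230 genes. It rests on the small spread between the 12 h replicates (mean chi-square per gene 2.24 with DMSO and 8.60 with thapsigargin). The difference between Calr and Canx was not tested.

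Creld2 (ENSMUSG00000023272.4, chr15:88819646-88826683, plus strand) was one of the early genes. Its libraries went from 55.6, 51.0 and 32.4 CPM with DMSO to 153, 139 and 117 CPM with thapsigargin at 2 h, and from 57.8 and 58.8 CPM to 625 and 719 CPM at 12 h. At 6 h they were at 185, 166 and 194 CPM and 765, 1175 and 1059 CPM, without overlap. The rise was 1.56 ± 0.22, 2.46 ± 0.22 and 3.53 ± 0.27 on the log2 scale (edgeR adjusted p = 0.000731, 2.34e-06 and 1.23e-06).

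Manf (ENSMUSG00000032575.16, chr9:106838312-106891979, minus strand) was at 48.8, 51.7 and 50.2 CPM and 89.5, 87.1 and 79.7 CPM at 2 h, a log2 difference of 0.77 ± 0.34 that was not called (edgeR adjusted p = 0.268), although the groups did not overlap. It was called with scaling to total counts (edgeR adjusted p = 0.0432) and when only these 2 groups entered the fit (0.00386). With DMSO at 6 h it was at 189, 159 and 289 CPM and with thapsigargin at 561, 1393 and 1182 CPM. At 12 h it was at 50.3 and 52.4 CPM with DMSO and 413 and 401 CPM with thapsigargin, below the 6 h thapsigargin libraries. The log2 difference was 2.30 ± 0.34 at 6 h and 2.98 ± 0.42 at 12 h (edgeR adjusted p = 0.000249 and 0.000297). The locus of Manf overlaps Rbm15b on the same strand and Dcaf1 and 4930524O07Rik on the opposite strand, so the same doubt over overlapping reads applies to it as to Hsp90b1 and Dnajb11.

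**Figure D3:**
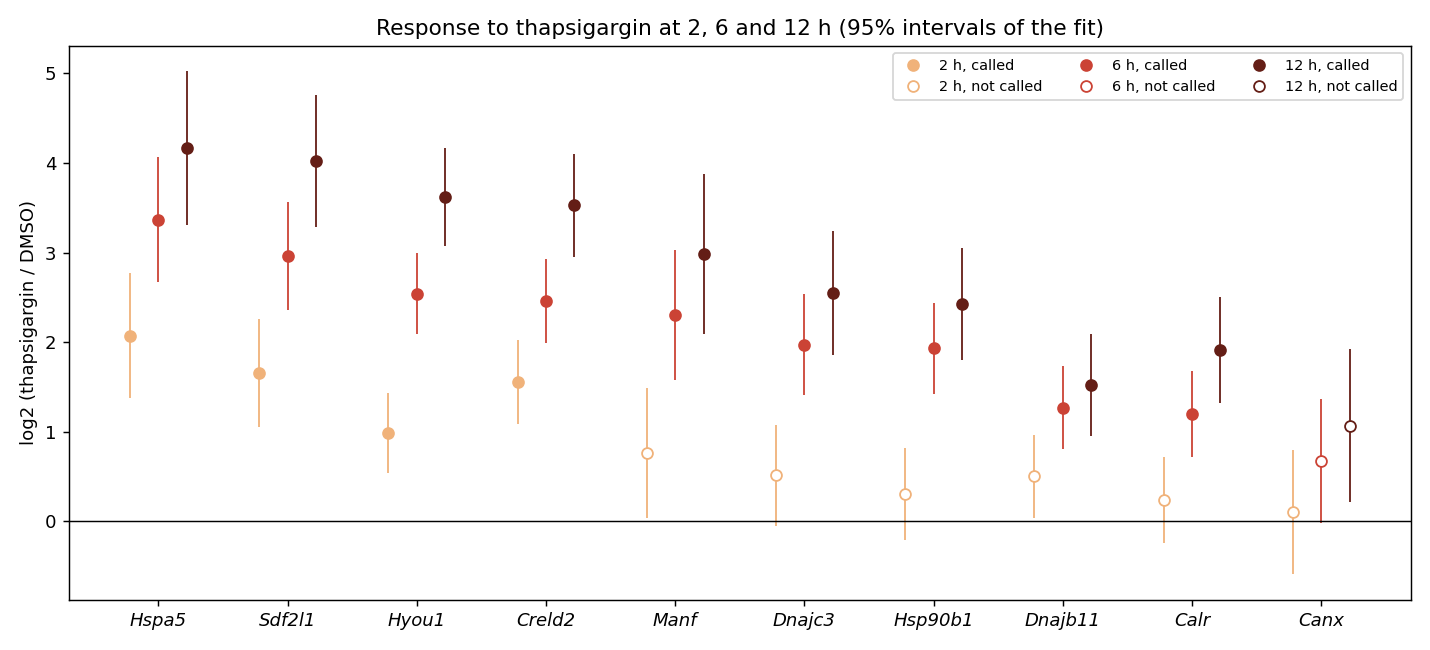
Log2 difference of thapsigargin from DMSO of the same time for the 10 genes at 2, 6 and 12 h, with 95% intervals from edgeR. Hspa5 is the highest of the 10 at 2 h at 2.07, Canx is the lowest at 6 and 12 h at 0.68 and 1.07, and every value is above 0.

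Whether the responses grew with time was tested as the difference between responses. From 2 to 6 h, 3 of 10 responses were larger by edgeR, against 2.12% of all genes: Hsp90b1 by 1.62 ± 0.34, Hyou1 by 1.55 ± 0.30 and Dnajc3 by 1.46 ± 0.38 on the log2 scale (adjusted p = 0.012, 0.00716 and 0.0408). The other 7 had positive differences that were not called, with 9 of 10 at an unadjusted p under 0.05. For Hspa5 it was 1.30 ± 0.47 (95% interval 0.31 to 2.29; edgeR adjusted p = 0.155). The Dnajc3 call was lost when any of 10 of the 12 libraries was left out (edgeR adjusted p from 0.0519 to 0.112), with no filter on low counts (0.0638) and with the replicate number as a block (0.0635). With scaling to total counts the calls of Hsp90b1, Hyou1 and Dnajc3 were all lost (edgeR adjusted p = 0.1004, 0.174 and 0.361) and Manf was the 1 member called (0.0478). Without the third DMSO 2 h library the count was 5, and without both libraries rich in mitochondrial transcripts it was 9. From 6 to 12 h, 0 of 10 differences were called by edgeR, against 0.0388% of all genes called higher. All 10 were positive with a median of 0.70, 3 had an unadjusted p under 0.05, and DESeq2 called 1. A larger response is not a higher thapsigargin level. The mean thapsigargin level fell from 6 to 12 h for Sdf2l1 (423 to 311 CPM), Creld2 (1000 to 672), Manf (1046 to 407) and Dnajb11 (306 to 263). Their mean DMSO levels fell too, from 54.3 to 19.1, 182 to 58.3, 212 to 51.4 and 127 to 91.4 CPM. That of thapsigargin rose for the other members, and these thapsigargin changes were not tested.

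From 2 to 12 h, 8 of 10 responses were larger, against 1.92% of all genes. Hyou1 grew the most, by 2.63 ± 0.33 (edgeR adjusted p = 0.000214), followed by Sdf2l1 by 2.37 ± 0.45 and Manf by 2.22 ± 0.54 (edgeR adjusted p = 0.00539 and 0.027). Hsp90b1, Hspa5, Dnajc3, Creld2 and Calr grew by 2.12, 2.09, 2.03, 1.97 and 1.68. Canx and Dnajb11 were not called, at 0.97 ± 0.52 and 1.02 ± 0.35 (edgeR adjusted p = 0.412 and 0.119). Several of these calls rest on the full set of libraries: without each of the 4 libraries of 12 h in turn, 3 to 5 members were called. The Hspa5 call was lost without any of 9 of the 10 libraries (edgeR adjusted p from 0.0615 to 0.164) and that of Manf without any of 8 (0.0542 to 0.140). The Calr call was lost without any of the 4 libraries of 12 h (0.0507 to 0.0768) and that of Dnajc3 without either DMSO 12 h library or the first thapsigargin 12 h library (0.0622 to 0.0775). The Sdf2l1 call was lost without the first DMSO 12 h library (0.0522). With the replicate number as a block, Hspa5 and Manf were each at an edgeR adjusted p of 0.0544. With scaling to total counts the calls of Hspa5, Hsp90b1, Dnajc3 and Creld2 were lost (edgeR adjusted p = 0.247, 0.0558, 0.204 and 0.0522).

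The recovery group asks whether the rise outlasts the drug. Against 6 h of thapsigargin, all 10 genes were lower after recovery, where 13.9% of all genes were called lower, and all 10 lay wholly below, as 19% of all genes did. The median log2 difference was -2.65, beside 0.04 over all genes. Hspa5 was at 293, 892 and 865 CPM in the recovery libraries, 18.8-fold lower than at 6 h of thapsigargin (-4.24 ± 0.33 on the log2 scale; edgeR adjusted p = 1.15e-06). Hyou1 was at 111, 175 and 154 CPM (-3.19 ± 0.21) and Sdf2l1 at 30.2, 22.2 and 33.4 CPM (-3.89 ± 0.28). These libraries all lay below the lowest thapsigargin library. Canx fell the least, to 175, 509 and 389 CPM (-1.01 ± 0.33; edgeR adjusted p = 0.0331). The Canx call was lost without the first thapsigargin 6 h library or without recovery library 1 or 3 (edgeR adjusted p = 0.153, 0.0658 and 0.0580), with scaling to total counts (0.135), and when only these 2 groups entered the fit (0.269). Calr fell by 1.67 ± 0.23, a call that was also lost in that last fit (edgeR adjusted p = 0.0565).

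Against DMSO at 6 h, the group that shares the recovery cells' exposure time but not their time in culture, 0 of 10 genes were called by edgeR, where 0.327% of all genes were. All 10 log2 differences were below 0, with a median of -0.55 beside 0.06 over all genes, and 5 genes had an unadjusted p under 0.05. In 5 of 10 every recovery library lay below every DMSO 6 h library, against 5.43% of all genes. Hspa5 was at 683 ± 338 CPM (SD, n = 3) after recovery and 1247 ± 304 CPM with DMSO, a difference of -0.87 ± 0.33 (95% interval -1.57 to -0.17; edgeR adjusted p = 0.392). Its first recovery library, the one rich in mitochondrial transcripts, was the lowest of all 19 at 293 CPM. That library also had the highest share of unassigned reads of all 19 (28.7%), the lowest TMM factor (0.526) and the lowest long-less-short value (-1.95). The lowest of the 10 differences was that of Sdf2l1 at -0.93 ± 0.28 (edgeR adjusted p = 0.248), followed by Hspa5, Creld2 at -0.73 ± 0.22 and Hyou1 at -0.65 ± 0.21. With Dnajb11, these are the 5 genes whose groups did not overlap. The Hyou1 libraries were at 243, 237 and 209.9 CPM with DMSO and 111, 175 and 154 CPM after recovery. DESeq2 called Hyou1 alone, as lower, where 398 of 15533 genes were called in either direction. Without the libraries rich in mitochondrial transcripts edgeR called 3 members lower and 0 higher, where 377 of 17810 genes were called in either direction. Both comparisons share the recovery libraries.

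**Figure D4:**
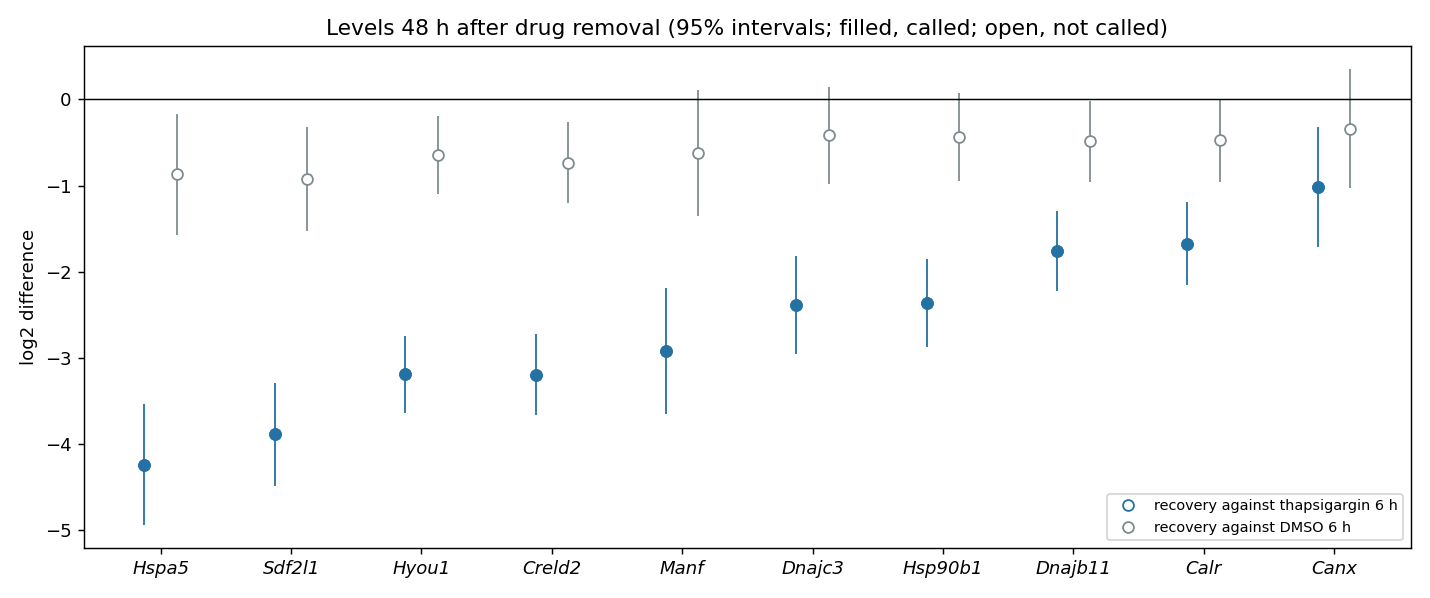
Log2 difference of the recovery group from 6 h of thapsigargin and from 6 h of DMSO for the 10 genes, with 95% intervals. Differences from thapsigargin run from -4.24 to -1.01 and differences from DMSO from -0.93 to -0.34.

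The DMSO groups themselves differed between times. From 2 to 6 h of DMSO, 5 of 10 genes were higher by edgeR, where 24.6% of all genes were called higher and 49.6% in either direction. They were Sdf2l1 (2.21 ± 0.28), Manf (2.08 ± 0.34), Creld2 (1.97 ± 0.22), Dnajb11 (0.71 ± 0.22) and Calr (0.59 ± 0.23). Creld2 was at 46.3 ± 12.3 CPM at 2 h and 182 ± 14.6 CPM at 6 h (SD, n = 3 each). Sdf2l1, Creld2 and Manf fell again from 6 to 12 h of DMSO, with log2 differences of -1.51, -1.64 and -2.05. At 6 h of DMSO each of these 3 genes stood above its 2 h thapsigargin libraries. They were the 3 members called lower, where 16.8% of all genes were. Between 2 and 12 h of DMSO 0 of 10 were called by edgeR, 1 had an unadjusted p under 0.05, and 7.17% of all genes were called. Calr lost its 6 h call without any of 4 DMSO libraries (edgeR adjusted p from 0.0871 to 0.112), with relative log expression scaling (0.0803), no filter (0.165), the replicate block (0.0607) or length offsets (0.416), and with DESeq2 (adjusted p = 0.0535). Dnajb11 lost it with scaling to total counts (edgeR adjusted p = 0.186) and with no filter (0.0628). Sdf2l1 lost its 12 h call without the first DMSO 12 h library (0.0646). Without the third DMSO 2 h library and the first recovery library, 9 of 10 were called from 2 to 6 h, of which 7 were higher and 2 lower. From 6 to 12 h 8 of 10 were called, of which 1 was higher and 7 lower. Most genes were called in that setting too, 10360 of 17810 from 2 to 6 h and 10088 from 6 to 12 h. With transcript-length offsets fitted, 5 were called lower and 0 higher from 6 to 12 h, where 3940 of 18039 genes were called. These offsets also made the called differences of Sdf2l1 and Creld2 smaller, at 1.13 and 1.09 from 2 to 6 h and -0.61 and -0.93 from 6 to 12 h.

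Most of the 10 proteins have a relative outside the ER lumen or a close homologue, which makes it possible to ask about the ER member within the same library. The log2 ratio of a member to its relative was taken in each library, so that scaling between libraries drops out. Thapsigargin was compared with DMSO at each time, and the mean of the 3 differences was tested by an exact two-sided permutation test within times (2400 arrangements, smallest p 0.000833). Of 8 pairs, 6 had that smallest p and an adjusted p of 0.00111 over the 8 pairs. The pairs and this test were chosen after the data were seen.

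For Hspa5 against Hspa8, the constitutive Hsp70 of the cytosol, the log2 ratio was -1.57, -1.14 and -2.54 in the DMSO libraries at 6 h and 3.62, 2.42 and 2.74 with thapsigargin. All 3 treated ratios lay above all 3 DMSO ratios. The ratio rose by 2.33, 4.68 and 4.80 at 2, 6 and 12 h, a mean of 3.94 (exact permutation p = 0.000833). For Sdf2l1 against Sdf2, its close homologue, the mean rise was 3.28, with -0.29, -0.50 and -0.89 at 6 h of DMSO and 2.94, 2.81 and 2.91 at 6 h of thapsigargin. For Hyou1 against Hsph1, the Hsp110 of the cytosol, it was 2.59, and for Hsp90b1 against Hsp90ab1, a cytosolic Hsp90, 1.96. For Dnajc3 against Dnajc7 and Creld2 against Creld1 it was 1.77 and 1.52.

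Dnajb11 against Dnajb1, a cytosolic J-domain protein, changed by -0.16 at 2 h and rose by 2.26 at 6 h and 1.55 at 12 h (mean 1.21, exact permutation p = 0.0142, adjusted 0.0162). Manf against its homologue Cdnf had a mean of 0.64 and was not called (exact permutation p = 0.175). Cdnf was at 0.54 to 2.00 CPM, where its counts limit the precision. In edgeR's test at 6 h, 3 of 14 relatives fell, 3 rose and 8 were not called, where 8.79% of all genes were called lower and 13% higher. Those that fell were the cytosolic heat shock genes Hspa8 (-1.26 ± 0.26; edgeR adjusted p = 0.00268), Hsph1 (-1.05 ± 0.28; 0.014) and Dnajb1 (-0.98 ± 0.16; 0.000441). Hspa8 went from 4191 ± 1013 CPM to 1746 ± 535 CPM (SD, n = 3). Those that rose were Hspa9, the mitochondrial Hsp70 (1.33 ± 0.27), Creld1 (1.13 ± 0.19) and Cdnf (1.87 ± 0.34). The Hsph1 and Dnajb1 calls were lost when libraries were scaled to their total counts (edgeR adjusted p = 0.175 and 0.0707). The Hsph1 call was also lost without the second DMSO 6 h library or thapsigargin 6 h library 2 or 3 (0.0529, 0.0608 and 0.0540). None of these 3 genes was called lower at the other times. At 12 h Hspa8 was at -0.63 ± 0.32, Hsph1 at 0.28 ± 0.35 and Dnajb1 at -0.02 ± 0.20 (edgeR adjusted p = 0.249, 0.734 and 0.981). At 2 h 1 of the 14 relatives was called, Dnajb1, which was higher (0.71 ± 0.16, edgeR adjusted p = 0.0198), where 3.01% of all genes were called higher. With scaling to total counts, with no filter or without any 1 of the thapsigargin 2 h libraries, 0 relatives were called. At 12 h 2 of the 14 were called, both higher, where 6.29% of all genes were called higher. They were Creld1 (1.85 ± 0.24) and Hspa9 (1.06 ± 0.34, edgeR adjusted p = 0.0492). The count in either direction was 1 without any 1 of the 12 h libraries and 8 with only the groups compared.

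**Figure D5:**
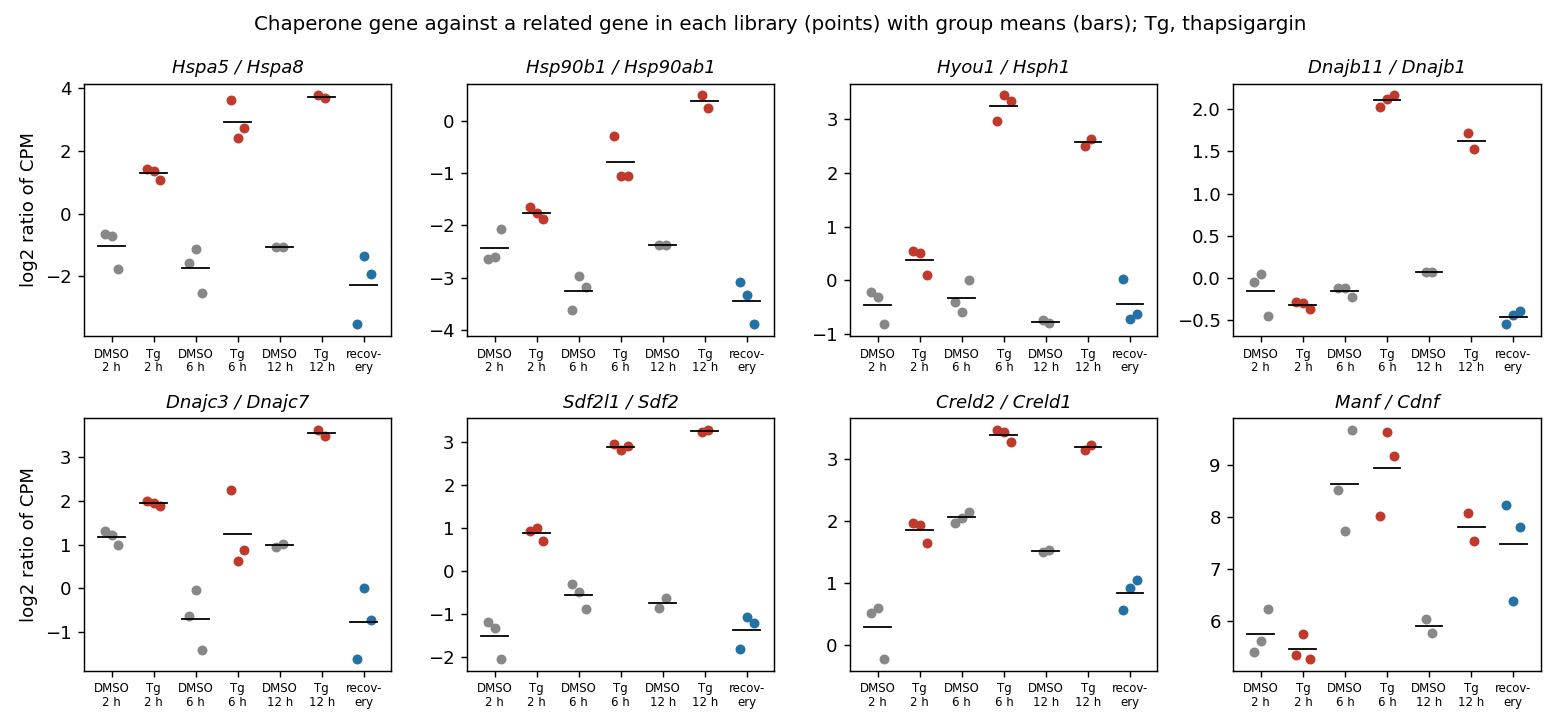
Log2 ratio of each of 8 ER lumen genes to its relative in each library, by treatment and time; 1 panel per pair. The Hspa5 to Hspa8 ratio rises by 2.33, 4.68 and 4.80 at 2, 6 and 12 h, while the Manf to Cdnf ratio differs by -0.29 at 2 h.

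Other genes of the ER folding machinery were taken from lists and are given at 6 h, with counts called higher, lower or neither by edgeR, to be read beside 13% higher and 8.79% lower over all genes. Of 7 other BiP partners, 2 rose: Dnajb9, a J-domain protein (3.71 ± 0.45), and Dnajc25 (0.81 ± 0.18); 5 were not called. The Dnajc25 call was lost with no filter on low counts (edgeR adjusted p = 0.0550). Of 7 genes of the glycoprotein folding cycle, which works with Calr and Canx, 0 were called in either direction and the median was 0.32. The 3 KDEL receptors, which return escaped ER proteins, were not called either. Of 10 genes in the list named other luminal calcium-binding proteins, 1 rose, Nucb2 (2.08 ± 0.29), and 1 fell, Cnpy4 (-1.74 ± 0.27). Calcium binding and place in the cell were not tested here for either gene. Of 19 disulfide and prolyl isomerases 7 rose, 2 fell and 10 were not called; Pdia4 (4.95-fold) and the oxidase gene Ero1l (2.32 ± 0.25) were among the 7. The 2 that fell, named here after their values were seen, were Txndc12 (-0.86 ± 0.20) and Ppic (-0.72 ± 0.19).

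Of 17 genes of ER-associated degradation, which clears proteins that fail to fold, 8 rose and 9 were not called at 6 h. Herpud1, a membrane protein of that system, rose by 4.11 ± 0.29 at 2 h and 4.18 ± 0.29 at 6 h, and Sel1l, the adaptor of the ligase Syvn1, by 2.54 ± 0.29 at 6 h. Of 12 sensors and transcription factors of the unfolded protein response 7 rose and 5 were not called at 6 h. Xbp1, the factor spliced by Ire1, rose by 1.45 ± 0.28 at 2 h (edgeR adjusted p = 0.00848) and 1.80 ± 0.28 at 6 h. Gene counts do not separate its spliced form. Its 2 h call was lost with scaling to total counts (edgeR adjusted p = 0.0583). Ddit3, which encodes the factor CHOP, was already up by 4.35 ± 0.65 at 2 h and was up by 4.44 ± 0.64 at 6 h, values to set beside 2.07 and 3.37 for Hspa5. At 2 h, 2 of the 17 degradation genes and 3 of the 12 sensors and factors were called higher, against 3.01% of all genes. At that time 0 genes were called in the lists of other BiP partners, the glycoprotein folding cycle, calcium-binding proteins, KDEL receptors and isomerases. With other settings up to 5 of the isomerases and up to 1 gene of each of the other 4 lists were called at 2 h, and at 6 h up to 2 genes of the glycoprotein folding cycle and 1 KDEL receptor.

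Genes whose 7 group means followed those of Hspa5 most closely were ranked by Pearson's correlation of mean log2 CPM over the 7 groups, among 7913 genes with names other than clone names, a mean of at least 5 CPM and a range of at least 1 on the log2 scale. The closest were Syvn1 (0.991), a ubiquitin ligase of ER-associated degradation, Alg12 (0.990), a mannosyltransferase of glycan assembly, Car6 (0.986), Ddx50 (0.984) and Dus4l (0.983). Hyou1 came sixth at 0.980. The next members were Dnajb11 at 0.941, Hsp90b1 and Dnajc3 at 0.928 and Calr at 0.925, while Manf was at 0.811 and Canx at 0.668. These values describe 7 points that share the same libraries and carry no test. Alg12 is the gene that shares its ERSE with Creld2.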

How the data were processed

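RNA-seq gene counts of 19 C2C12 libraries were analysed. Whole-number read counts per gene were deposited by the authors, 1 file per library; the submitters' processing notes name Trim Galore, STAR 2.5.3a, bedtools 2.31.0, DESeq2 and the mm10 build. No source names the counting program, its strand setting or the annotation release (not given in the sources used here). GENCODE M21, which supplied coordinates and lengths, matched 55141 of 55401 gene identifiers. In each file 5 lines of unassigned reads were kept out of library sizes. Reads assigned to no gene were 13.7 to 28.7% and ambiguous reads 5.49 to 8.18% of each library. Groups were taken from the sample titles, which gave every library a group.

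All 19 libraries entered 1 model with a mean per group in edgeR 4.0.16 (R 4.3.3, limma 3.58.1): TMM scaling, filterByExpr by group (18039 genes kept), quasi-likelihood F tests, two-sided, with Benjamini-Hochberg adjustment over all genes and a threshold of 0.05. The same method applies to every adjusted p given for edgeR. The common biological coefficient of variation was 0.352. CPM are TMM-scaled, and intervals are 95%. Every pair of replicates differed by more than counting noise (lowest mean chi-square per gene 2.24). The scripts were tested on simulated counts. Ratio tests were exact permutations within times. Motifs were matched on both strands of RefSeq windows (Python 3.11.15, numpy 2.4.6, pandas 2.3.3, matplotlib 3.10.9).

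The rule for named genes was: the 10 members, the 6 genes whose group means follow Hspa5 most closely (clone names and pseudogenes left out), any relative of a member, and in each other ER list the 2 called genes with the largest log2 difference at 6 h. The members, lists and tests were chosen with earlier results of these data known. Ratios to relatives, and the alternatives for lists and ratios, were added after seeing the data. Alternatives were scaling by relative log expression or total counts, DESeq2 1.42.0, no filter, fitting only the groups compared, the replicate number as a block, transcript-length offsets, leaving out the libraries with over 10% mitochondrial reads, and leaving out each library.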

Additional observations from a re-analysis of the deposited data

Results flagged for a closer look

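Of the 10 ER lumen genes, 8 had a response to thapsigargin that differed between times by edgeR's test of the difference itself, with Benjamini-Hochberg adjustment over all genes. From 2 to 6 h the log2 response grew by 1.62 for Hsp90b1, 1.55 for Hyou1 and 1.46 for Dnajc3. From 2 to 12 h it grew by 2.63 for Hyou1, 2.37 for Sdf2l1, 2.22 for Manf, 2.12 for Hsp90b1, 2.09 for Hspa5, 2.03 for Dnajc3, 1.97 for Creld2 and 1.68 for Calr. In every case the response was larger at the later time. These 11 differences rest on the same DMSO and thapsigargin libraries of 2 h, and the 3 genes of the first comparison are also in the second. The groups of 2 h and 6 h also differ in their transcript-length trend, and the third DMSO 2 h library in its mitochondrial share, as given above. With scaling to total counts 1 member was called from 2 to 6 h, which was Manf, and 4 from 2 to 12 h. Without each of the 12 h libraries in turn 3 to 5 were called from 2 to 12 h. The Dnajc3 call from 2 to 6 h was lost in 13 of 20 alternatives.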

How the results depend on the processing

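The counts of members called at 2, 6 and 12 h and against 6 h of thapsigargin after recovery stayed within 1.5 times of 4, 9, 9 and 10 under every alternative. Leaving out each library gave 3 to 4 at 2 h, 9 at 6 and 12 h and 9 to 10 after recovery. Other counts moved, and the cause was not tested. Against DMSO at 6 h, recovery gave 1 lower with DESeq2 and 3 lower without the libraries rich in mitochondrial RNA. For 6 h less 2 h, 3 became 1 with total-count scaling, 6 with DESeq2, 5 with only the groups compared, 9 without the mitochondrial-rich libraries, 6 with length offsets, and 2 to 5 leaving out each library. For 12 h less 6 h, 0 became 1 with DESeq2, 1 with only the groups compared and 2 without the mitochondrial-rich libraries. For 12 h less 2 h, 8 became 4 with total-count scaling and 3 to 9 leaving out each library. For DMSO at 6 against 2 h, 5 became 3 with no filter and 9 without the mitochondrial-rich libraries. For DMSO at 12 against 6 h, 3 became 6 with only the groups compared, 8 without the mitochondrial-rich libraries and 5 with length offsets.

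Reversed signs all belonged to differences that were not called. Canx at 2 h was -0.036 without the third DMSO 2 h library. With length offsets Dnajc3 was 0.18 for DMSO at 6 against 2 h and -0.26 at 12 against 6 h. The rest are for DMSO at 12 against 2 h. Leaving out each library gave -0.15 to 0.12 for Hspa5, -0.20 to 0.24 for Hsp90b1, -0.011 to 0.41 for Dnajb11 and -0.16 to 0.15 for Hyou1. Hspa5 was -0.050 with no filter, -0.012 with only the groups compared, -0.026 with the block, -0.16 without the mitochondrial-rich libraries, -0.15 without the third DMSO 2 h library and -0.0014 without the second DMSO 12 h library. In the same order, leaving out the fit of only the groups compared, Hyou1 was -0.025, -0.010, -0.17, -0.16 and -0.0078. Hsp90b1 was 0.18 with total-count scaling, 0.22 without the mitochondrial-rich libraries and 0.24 without the third DMSO 2 h library. Dnajb11 was -0.024 and -0.011 under these last settings. Manf was -0.027 with no filter and -0.043 with length offsets, and Dnajc3 was 0.0081 with total-count scaling.

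Counts over all genes moved by more than 1.5 times in most comparisons: 816 genes called at 2 h became 320 to 2404, 2356 at 12 h became 1124 to 8847, and 59 for recovery against DMSO became 0 to 398. At 6 h 3926 became 6588 without the mitochondrial-rich libraries, and recovery against thapsigargin, 4601, became 1403 with only the groups compared. The 719 for 6 h less 2 h became 321 to 1975, the 103 for 12 h less 6 h became 12 to 732, and the 916 for 12 h less 2 h became 370 to 3353. DMSO at 12 against 6 h, 6393, became 1529 to 10088, and at 12 against 2 h, 1293 became 430 to 2251. With total-count scaling the median log2 difference over all genes was 0.17 instead of -0.04 at 2 h, 0.14 instead of 0.01 at 6 h, -0.13 instead of 0.04 for recovery against thapsigargin, 0.29 instead of 0.00 for DMSO at 12 against 6 h, 0.25 instead of 0.05 at 12 against 2 h, -0.18 instead of 0.03 for 12 h less 2 h and -0.16 instead of -0.04 for 12 h less 6 h. Its split of calls was 470 higher and 48 lower at 2 h, against 543 and 273, and 2069 and 832 at 6 h, against 2341 and 1585. For recovery against thapsigargin it was 1101 and 2241, against 2090 and 2511, for 12 h less 2 h 124 and 354, against 347 and 569, for DMSO at 12 against 6 h 2865 and 1698, against 3368 and 3025, and at 12 against 2 h 479 and 371, against 547 and 746. With length offsets the 2 h split was 657 and 505, and that of 12 h less 6 h was 33 and 138, against 7 and 96.

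The labels do not say whether same-numbered libraries belong together. Of 14 same-number pairs 3 correlated over 0.1 (range -0.594 to 0.557). These values cannot show whether a pairing exists, since they rest on deviations within groups of only 2 or 3 libraries. The thapsigargin 12 h libraries are replicates 1 and 2 by title but carry the numbers 2 and 3 in the names of their deposited files; titles were followed, so block values that involve 12 h rest on that choice. With the replicate block the edgeR adjusted p was 0.0635 for Dnajc3 at 6 h less 2 h, 0.0544 for Hspa5 and 0.0544 for Manf at 12 h less 2 h, and 0.0607 for Calr in DMSO at 6 against 2 h; the block lost no other call of a member and gained 0.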

Other observations

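The exact ERSE found in 6 members also occurred in the windows of 31 genes that are not members, of which 15 were tested. At 2 h of thapsigargin 3 of these 15 were called higher by edgeR and 0 lower. At 6 h 8 were higher and 0 lower, with a median log2 difference of 1.26 beside 0.01 over all genes. The 8 are Syvn1 (2.36), Alg12 (1.78), Pdia6 (1.27), Acacb, Pan2, Tdrd9, Xlr3a and Zfp57, named here after their values were seen. The 15 genes are not all separate cases. Alg12 shares its ERSE with the member Creld2, and Xlr3a, Xlr3b and Xlr3c, of the same gene family, are counted separately (2.37, 0.57 and 0.71). At 12 h 5 were higher and 0 lower. After recovery 7 of the 15 were lower than at 6 h of thapsigargin and 0 were called in either direction against DMSO at 6 h, where 13.9% of all genes were called lower and 0.327% were called in either direction. Syvn1 is the ubiquitin ligase whose group means followed those of Hspa5 most closely, Alg12 adds mannose to the glycans that Calr and Canx later read, and Pdia6 is a disulfide isomerase of the ER. The background shares were 3.01%, 13% and 6.29% of all genes called higher at 2, 6 and 12 h. A matching sequence in a window says nothing about which factor, if any, was bound.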
